A study of Homo sapiens with 3 samples.

Results

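The 10 genes described here make, remove, carry or sense retinoic acid. They are ALDH1A1, ALDH1A2, ALDH1A3, DHRS9, DHRS3, RARA, RARB, RARG, CYP26B1 and CRABP2, chosen by name out of 19974 protein-coding genes. For each gene, the BRG1 peaks were taken whose midpoint lay in the gene body, or outside every body and within 100 kb with that gene as the nearest. This gave 6 of the 6343 peaks of the overlap list, 11 of the 17399 peaks of replicate 1 and 6 of the 10157 peaks of replicate 2. BRG1, the SMARCA4 product, is the ATPase motor of the SWI/SNF chromatin remodelling complex. It was mapped by chromatin immunoprecipitation and sequencing in wild-type 12Z cells, an established human line of endometriotic epithelium. The immunoprecipitates of BRG1 made 2 libraries, replicates 1 and 2, set beside 1 input library of the same wild-type line, all untreated as far as the labels say. Everything below therefore describes 1 line in 1 state, and the peak lists do not measure how strongly a gene is expressed.

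Retinoic acid is made from vitamin A in a pair of oxidation steps. Short-chain dehydrogenases such as DHRS9 turn retinol into retinaldehyde, DHRS3 reduces retinaldehyde back to retinol, and the ALDH1A enzymes oxidise retinaldehyde irreversibly to retinoic acid. CRABP2 carries retinoic acid to the nucleus, where the receptors RARA, RARB and RARG bind response elements in DNA together with an RXR partner, and CYP26B1 hydroxylates retinoic acid for removal. In the endometrium, retinoid enzymes and binding proteins change over the menstrual cycle.

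A shared peak, that is, a peak of the overlap list, was found for 5 genes, ALDH1A2 with 2 shared peaks, and DHRS9, DHRS3, RARA and CYP26B1 with 1 each. The other 5 genes, ALDH1A1, ALDH1A3, RARB, RARG and CRABP2, had no peak in any of the 3 lists. The share of 5 in 10 stands beside 9.67% of all protein-coding genes with a shared peak. Each replicate alone picked out the same 5 genes, where the share of all genes with a peak was 20.2% in replicate 1 and 11.5% in replicate 2. Since each shared peak of these genes covered a peak of both replicates, their return was built in, and only further genes could have differed. Since longer domains catch more peaks, each gene can also be read against the genes of its own decile of domain length, a domain being the stretch from which peaks are assigned to a gene. The share of genes with a shared peak was 29.5% in the decile of ALDH1A2 (domain 249 kb) and 12.9% for CYP26B1 (133 kb). It was 12.3% for DHRS3 (91.2 kb), 8.71% for DHRS9 (62.4 kb) and 5.61% for RARA (52.2 kb). Among the 5 genes without a peak, this share was 29.5% for RARB and 19.9% for ALDH1A1. It was 3.003% for ALDH1A3 and 2.85% for both RARG and CRABP2, so a lack of shared peaks was common at those lengths. Within 50 kb the same 5 genes had a shared peak (8.93% of all genes), as they did with any base of a peak counted in place of its midpoint (9.7%) and with noncoding genes allowed as the nearest (7.21%). At 50 kb ALDH1A2 kept only the shared peak beside its start, the one of lowest fold (2.94) among the shared peaks of the 10 genes. Within 1 Mb RARB was added (10.8% of all genes). The gene names were picked with earlier results of these data known, so the count of 5 is a description and was not tested.

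**Figure D1:**
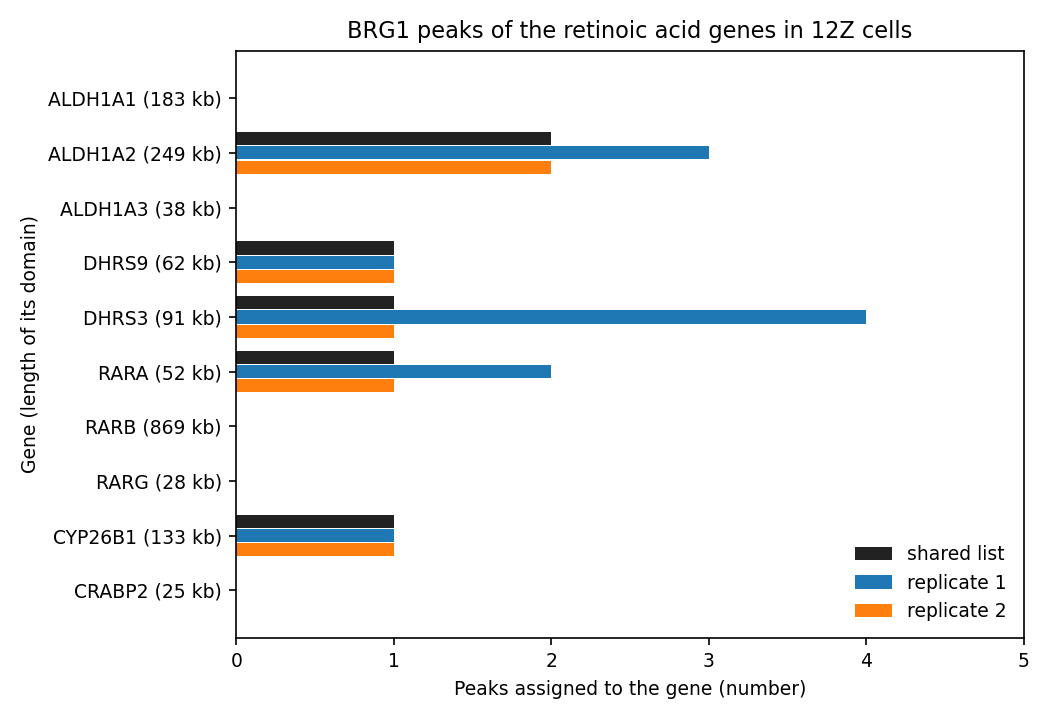
Number of BRG1 peaks (horizontal axis) assigned to each of the 10 genes (vertical axis, with the length of its domain in kb) in the shared list (black), replicate 1 (blue) and replicate 2 (orange). The same 5 genes carry peaks in all 3 lists, and RARB, with the longest domain of the 10, has none.

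Among the retinaldehyde dehydrogenases, which catalyse the step that commits retinaldehyde to retinoic acid, ALDH1A2 alone had peaks. Its stronger shared peak lay at 57873606 to 57874341 on chromosome 15, 79.5 kb beyond the 3' end of the gene. The authors' fold enrichment, the ratio of signal to background that the peak caller gives, was 4.20 in the shared list, 3.92 in replicate 1 and 4.75 in replicate 2. Whether the input library served as that background is not stated in the labels. The next protein-coding gene, GCOM1, was 156 kb away, so the peak belongs to ALDH1A2 only in the sense that no other such gene is closer. The replicate 2 peak, 228 bases wide, fell wholly inside the replicate 1 peak of 726 bases.

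The other shared peak of ALDH1A2 covered 1870 bases at 58063728 to 58065597 on chromosome 15 and ended 114 bases inside the gene from its 5' annotated start. It also overlapped ALDH1A2-AS1, an annotated antisense RNA gene. This was the weakest shared peak of the 6, with a fold of 2.94 in the shared list. The replicate peaks under it did not meet. That of replicate 1 (fold 3.30, −log10 q 1.51) and that of replicate 2 (fold 3.45, −log10 q 1.42) were 682 bases apart, the first nearer the start. Binding beside the ALDH1A2 start was thus called in both libraries but at different bases, and by −log10 p each call stood low in its own list, at percentile 11.3 in replicate 1 and 1.30 in replicate 2. Replicate 1 had 1 more peak in the gene, at 58060902 to 58061159, that replicate 2 did not have.

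The 250 bases before the ALDH1A2 start are shown because this was the only start of the 10 genes within 1 kb of a shared peak. Of 15812 genes with an annotated start in RefSeq (GRCh38.p14), 1.2% had a shared peak that close. Capitals mark the CpG dinucleotides, of which there are 33, more than in 89.7% of 22132 promoter windows (median 16).
ALDH1A2 chr15:58065712-58065961, minus strand: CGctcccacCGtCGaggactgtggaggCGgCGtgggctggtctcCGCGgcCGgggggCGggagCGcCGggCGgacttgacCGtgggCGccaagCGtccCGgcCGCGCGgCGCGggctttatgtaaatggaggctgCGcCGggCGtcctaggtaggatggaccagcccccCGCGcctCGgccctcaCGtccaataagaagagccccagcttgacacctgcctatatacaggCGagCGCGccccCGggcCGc
The window is 72.8% G or C, against a median of 62% over all windows. The window of ALDH1A3, with no peak in any list, had 38 CpG. The 4 DHRS9 windows had 0, 2, 1 and 0, and the nearest of them lay 14.5 kb from the shared peak of DHRS9. A relation of CpG content to peaks was not tested.

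ALDH1A1 and ALDH1A3 stayed without a peak. Of the 3161 genes with a domain at least as long as that of ALDH1A1, 1567 had no peak in any list. The closest shared peak to ALDH1A1, a major cytosolic retinaldehyde dehydrogenase, was 493 kb from its body, and the closest replicate peaks were 197 kb (replicate 1) and 343 kb (replicate 2) away. Around ALDH1A3 the closest peak lay 120 kb from the body in each of the 3 lists, at a site nearer to ASB7. That gene's domain is short, 38.2 kb and barely exceeds the gene body of 36.8 kb.

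DHRS9, which oxidises retinol to retinaldehyde, carried the peak of highest fold among the 10 genes in the shared list. It was a narrow peak of 314 bases at 169095685 to 169095998 on chromosome 2, inside the gene, with its midpoint 326 bases before the annotated 3' end. The fold was 5.06 in the shared list, where it ranked 20 of 6293, 5.37 in replicate 1 and 4.92 in replicate 2. Both replicate calls sat in the same place, the replicate 2 peak of 103 bases lying wholly within the replicate 1 peak of 143 bases. The nearest annotated start of DHRS9 was 14.7 kb upstream of the midpoint, and LRP2 was 31.3 kb away. Binding here was at the end of the gene and not at any of its 4 annotated starts.

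DHRS3, which runs the opposite reaction and returns retinaldehyde to retinol, had a shared peak at 12549908 to 12550337 on chromosome 1, 17.8 kb beyond its 3' end. Its fold was 3.59 in the shared list, 3.70 in replicate 1 and 3.81 in replicate 2, and the replicate peaks overlapped over 364 bases. VPS13D was 38.1 kb away. Among the 10 genes, DHRS3 had the largest difference in peak number between libraries. Replicate 1 had 3 further peaks inside the gene body, with folds of 3.47, 3.55 and 3.45, and replicate 2 had none there. Peaks without a partner were common: 33.0% of 9662 replicate 1 peaks in or within 100 kb of a gene overlapped a replicate 2 peak. The −log10 q values of the 3 further DHRS3 peaks were 2.20, 1.70 and 1.83. Of these peaks, 1 covered an annotated internal start and 1 ended 345 bases from the furthest downstream start.

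The 250 bases before each of these DHRS3 starts are shown because replicate 1 alone had a peak at or near these starts. The peak reaches into the first stretch, whereas beside the second start it lies downstream, 296 bases from the promoter window of that start, and covers none of the bases shown. Bases are numbered from the start, negative before it. In the first, capitals mark the 78 bases inside the replicate 1 peak. In the second, capitals mark matches to AGGTCA (the core bound by retinoic acid receptors, here on the opposite strand as TGACCT), to the AP-1 motif TGANTCA and to the TEAD motif GGAATG (here as CATTCC). They lie at −171 to −166, −85 to −79 and −13 to −8.
DHRS3, upstream of the start under the peak, chr1:12616790-12617039, minus strand: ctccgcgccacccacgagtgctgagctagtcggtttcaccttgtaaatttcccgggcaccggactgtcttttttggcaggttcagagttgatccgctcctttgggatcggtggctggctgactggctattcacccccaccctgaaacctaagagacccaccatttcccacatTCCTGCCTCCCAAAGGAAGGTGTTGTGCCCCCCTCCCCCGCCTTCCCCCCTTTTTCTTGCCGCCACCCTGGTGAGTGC
DHRS3, upstream of the furthest downstream start, chr1:12596614-12596863, minus strand: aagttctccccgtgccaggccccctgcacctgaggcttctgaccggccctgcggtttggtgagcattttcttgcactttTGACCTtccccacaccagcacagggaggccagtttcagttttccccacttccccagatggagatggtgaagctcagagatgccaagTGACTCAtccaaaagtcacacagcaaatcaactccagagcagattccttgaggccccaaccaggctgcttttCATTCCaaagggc
The TEAD letters also occur in the first of these windows, at −81 to −76, across the edge of the peak. A match of letters is no evidence of a bound factor.

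Of the 3 receptors, which are transcription factors switched by retinoic acid, RARA alone had peaks. Its shared peak lay at 40314430 to 40315030 on chromosome 17, inside the gene, between its annotated starts. The midpoint was 5.55 kb downstream of the 5'-most start and 3.52 kb upstream of the next. The fold was 3.96 in the shared list, 4.44 in replicate 1 and 5.22 in replicate 2, with a −log10 q of 6.27, 4.32 and 5.73. The replicate 2 peak of 114 bases lay wholly inside the replicate 1 peak of 473 bases. CDC6, a replication licensing gene, was 10.1 kb from the peak. A weak additional peak in replicate 1 (fold 3.15, −log10 q 1.48), 3.12 kb downstream of the last RARA start, had no partner in replicate 2.

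RARB, itself a textbook target of retinoic acid, had 0 peaks in all 3 lists although its body spans 769 kb. Of the 142 genes with a domain at least as long, 54 (38.0%) had a shared peak and 42 had no peak in any list, so the lack of peaks over so long a gene was not rare. The closest peak lay 151 kb upstream of the gene at 24678576 to 24678738 on chromosome 3. RARB is its nearest protein-coding gene, but it falls outside the limit of 100 kb. Its fold was 4.70 in the shared list, 4.94 in replicate 1 and 4.41 in replicate 2. The ALDH1A2 peak at 79.5 kb was the most distant one inside the limit, with a fold of 4.20 in the shared list. RARG, with a domain of 28.1 kb, had its closest shared peak 111 kb away, in the body of IGFBP6. In its decile of domain length 2.85% of genes had a shared peak, so the lack of one was common. The contrast of RARA with RARB and RARG was not tested.

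The RARB promoter is shown because it holds a known response element and yet lay 749 kb from the closest peak. Capitals mark a DR5 element, a pair of receptor cores in the same direction with 5 bases between them, at −53 to −37 from this start.
RARB chr3:25428013-25428262, plus strand: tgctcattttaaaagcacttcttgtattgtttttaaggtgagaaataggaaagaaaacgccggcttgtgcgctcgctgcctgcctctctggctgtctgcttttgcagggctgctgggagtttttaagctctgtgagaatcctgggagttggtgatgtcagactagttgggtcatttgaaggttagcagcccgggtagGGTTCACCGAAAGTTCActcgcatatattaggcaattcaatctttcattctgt
The search allowed A or G at the first and G or T at the third base of each core, on both strands, a form chosen after seeing that exact AGGTCA repeats were absent. It matched 17 of 22132 promoter windows (0.0768%), and 1 of the 21 windows of the 10 genes, this one. Exact AGGTCA cores repeated with 5 or with 2 bases between them each matched 0 of the 21 windows and 1 of 22132. The single core AGGTCA was in 3 of the 21 windows (of DHRS3, RARA and RARB) and in 11.9% of all windows. TGANTCA was in 2 (DHRS3 and DHRS9) against 6.15%, and GGAATG in 5 (of DHRS3, RARA and RARB) against 12.2%.

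CYP26B1, the hydroxylase that clears retinoic acid, had a shared peak at 72115482 to 72116314 on chromosome 2, 13.3 kb beyond its 3' end. The fold was 4.00 in the shared list, 4.54 in replicate 1 and 6.19 in replicate 2. In replicate 2 this peak ranked 2 of 10082 by fold, and in replicate 1 it ranked 581 of 17323. The replicate peaks shared 295 bases. EXOC6B, the next protein-coding gene, was 60.1 kb away. CRABP2, the binding protein that delivers retinoic acid to its receptors, had none. The closest shared peak lay 191 kb off inside PEAR1, and a replicate 1 peak 39.2 kb from CRABP2 (fold 3.36) was nearer to BCAN. In the decile of domain length of CRABP2, 2.85% of genes had a shared peak.

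**Figure D2:**
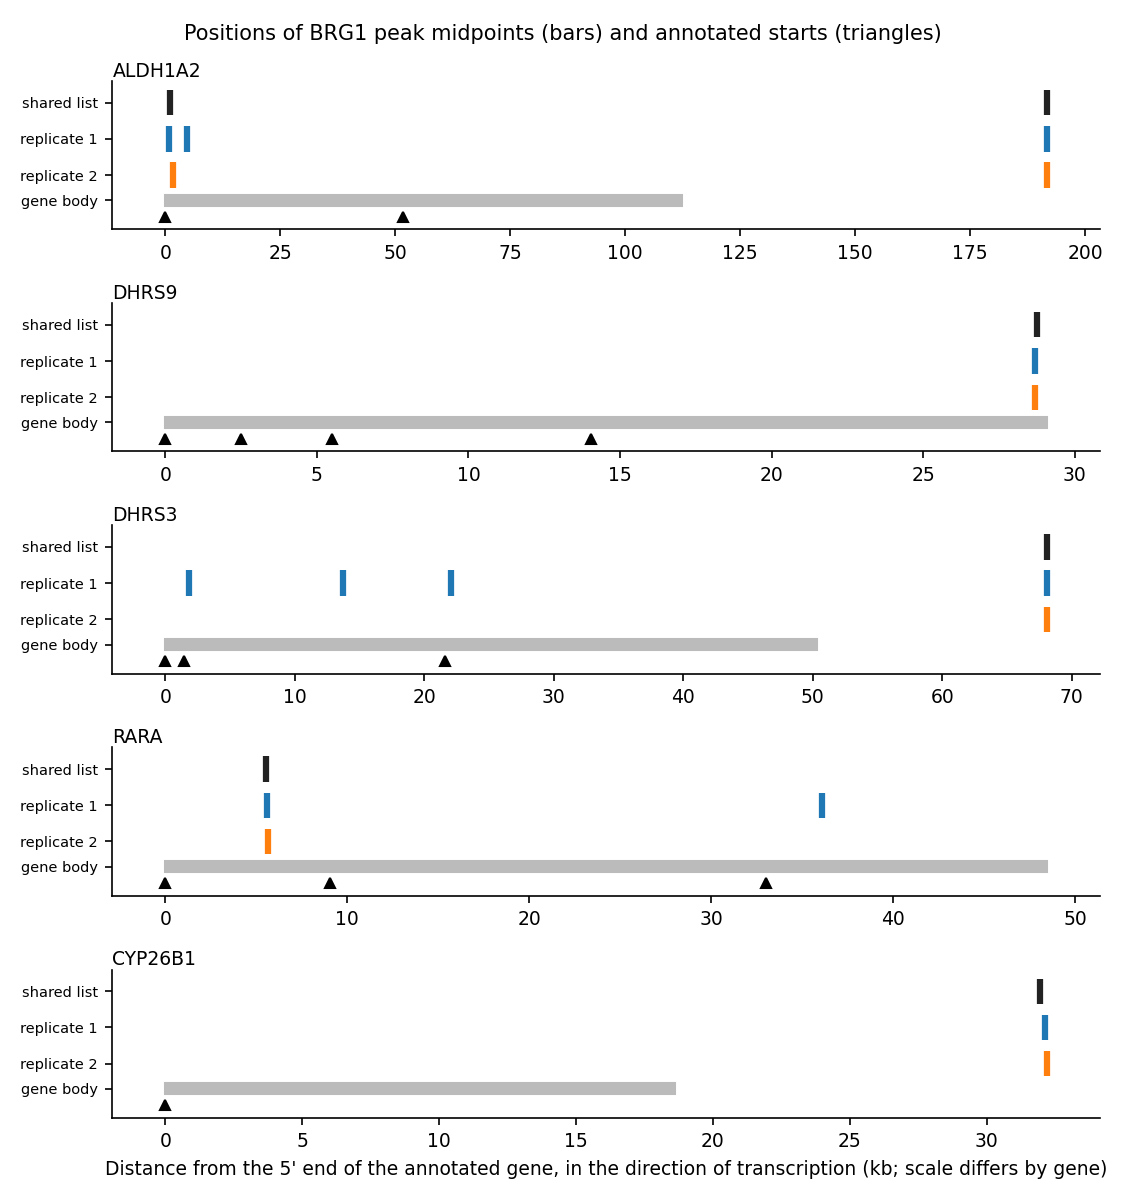
Midpoints of BRG1 peaks (vertical bars) for the 5 genes that have any, in the shared list (black), replicate 1 (blue) and replicate 2 (orange). The horizontal axis is the distance in kb from the 5' end of the annotated gene in the direction of transcription, with a scale of its own for each gene; the grey bar is the gene body and triangles are annotated starts. Bars of the 3 lists line up beyond the 3' ends of ALDH1A2, DHRS3 and CYP26B1 and near the 3' end of DHRS9, while the blue bars without an orange partner lie inside ALDH1A2, DHRS3 and RARA.

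By position, 3 of the 6 shared peaks lay inside a gene, 3 beyond a 3' end and 0 upstream. Over all gene-assigned shared peaks with a known strand, 64.2% of 2933 lay inside, 15.6% beyond the 3' end and 20.2% upstream. With 6 peaks this is a description of these loci. From any annotated start, 4 of the 6 were over 10 kb away, against 78.8% of 2572 over all genes, and the median distance was 23.3 kb against 39.7 kb. Within 3 kb of a start lay shared peaks of 1 gene, ALDH1A2, where 1.83% of the 15812 genes with an annotated start had one. Replicate 1 placed peaks within 3 kb of a start of 3 genes, ALDH1A2, DHRS3 and RARA (6.36% of those 15812 genes), and replicate 2 of 1, ALDH1A2 (2.69%).

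The order of the 6 peaks by fold differed between libraries in the place of DHRS9. In replicate 1 DHRS9 came first (5.37), then CYP26B1 (4.54) and RARA (4.44). In replicate 2 CYP26B1 was first (6.19), then RARA (5.22) and DHRS9 (4.92). The distal ALDH1A2 peak, the DHRS3 peak and the ALDH1A2 peak at the start side followed in that order in both. By fold, CYP26B1 was above RARA in both libraries, by a small margin in replicate 1. By −log10 p, RARA was above CYP26B1 in replicate 1 (7.99 and 7.71) and below it in replicate 2 (9.70 and 11.9). DHRS9 could not be ranked against them from 2 libraries. The median fold percentile of the 6 shared peaks was 91.6, against 62.5 for the 3244 shared peaks in or within 100 kb of a protein-coding gene. In replicate 2 it was 97.4 for 6 peaks, against 63.9. In replicate 1 it was 65.7 for 11 peaks, against 59.6, the added peaks being mostly of middling or low rank.

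**Figure D3:**
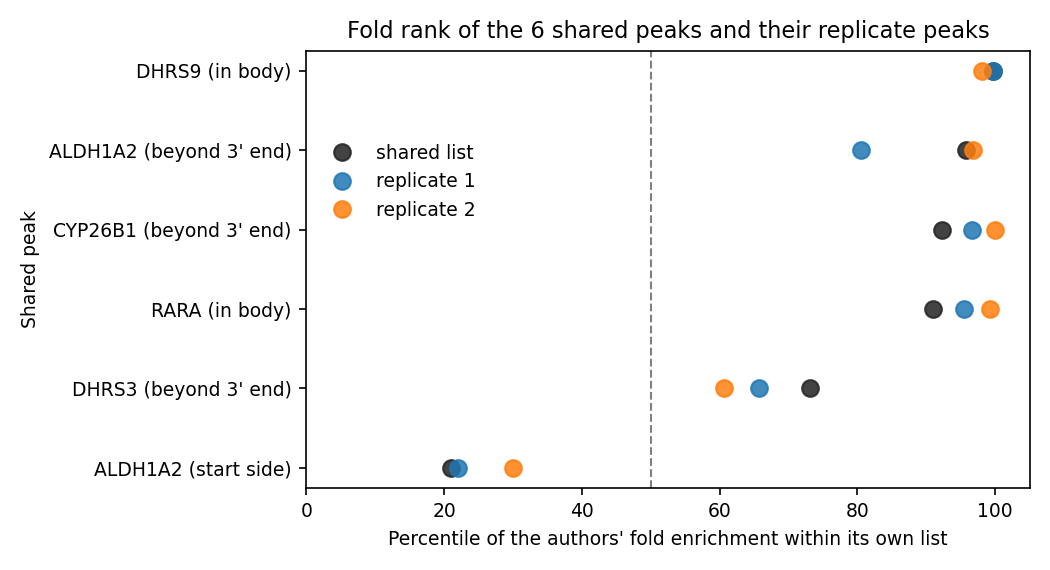
Percentile of the authors' fold enrichment within its own list (horizontal axis, 100 is the highest) for each of the 6 shared peaks (vertical axis) and for the replicate peaks beneath it, in the shared list (black), replicate 1 (blue) and replicate 2 (orange). The dashed line is the median of each list. The peaks of DHRS9, CYP26B1, RARA and the distal ALDH1A2 peak lie above the 80th percentile in all 3 lists, and the ALDH1A2 peak at the start side lies below the 30th.

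Of the replicate 1 peaks of these genes, 45.5% (5 of 11; Wilson 95% interval 21.3 to 72.0%) overlapped a replicate 2 peak by at least 1 base. Over all replicate 1 peaks in or within 100 kb of a gene the share was 33.0% of 9662. Of the replicate 2 peaks, 83.3% (5 of 6; interval 43.6 to 97.0%) overlapped a replicate 1 peak, against 74.1% of 4396. Both intervals contain the share over all genes, so no difference from it was detectable with so few peaks. The intervals treat peaks as independent and cover the counting of peaks only, since the lists hold no read counts. In both replicates a −log10 q of at least 3 was reached at CYP26B1, DHRS9 and RARA (3 of 10 genes, against 1.52% of all genes) and a value of 5 in both at none (0 of 10, against 0.125%). The distal ALDH1A2 peak missed the value of 3 in replicate 1 (2.38), and the DHRS3 peak missed it in both (2.11 and 1.99). Where replicate peaks had to share 50% of both their widths, CYP26B1, DHRS3 and DHRS9 remained (3 of 10, against 5.25%).

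Beyond the 10 genes, shared peaks were found near 5 of 11 retinoic acid responsive genes, 2 of 6 receptor coregulators and none of 11 genes of retinol uptake, storage and transport. These lists were not tested against each other. Of 51 further genes of the pathway in 6 lists, 10 (19.6%) had a shared peak, against 9.67% of all genes. These shares were not matched for domain length. The 10 genes had domains of 71.0 kb (RARRES1) to 352 kb (MEIS2), those of the uptake list 16.3 kb (RBP4) to 136 kb (BCO1). Among all genes, 12.3% had a shared peak in the length decile of DHRS3 (91.2 kb) and 29.5% in that of ALDH1A2 (249 kb). In the uptake list STRA6, the cell surface receptor that takes up retinol, had 2 peaks in replicate 1 only. Of 16 other retinol and retinaldehyde oxidoreductases, 2 had a shared peak. RDH10, a main retinol dehydrogenase of the embryo in mice, had its peak 46.2 kb from the body (fold 3.09 in the shared list), and RDH14 had its peak 38.1 kb beyond the 3' end (fold 3.52).

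Of 4 other clearance and binding genes, CYP26A1 alone had a shared peak, 74.5 kb beyond its 3' end (fold 3.59 in the shared list, 3.87 in replicate 1 and 3.86 in replicate 2). CYP26C1 and CRABP1 had no peak. Neither did the RXR partners RXRB and RXRG, and RXRA had a single replicate 2 peak 95.8 kb beyond its 3' end (fold 4.16). Among the coregulators, NRIP1, a nuclear receptor corepressor, had 1 shared peak in its body (fold 4.09 in the shared list, 4.25 and 4.45 in the replicate 1 and replicate 2 peaks at the same place).

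Among the retinoic acid responsive genes, TGM2, a transglutaminase, had a peak in its body with a fold of 3.91 in the shared list, 3.94 in replicate 1 and 4.12 in replicate 2, and a weaker one (3.09 in the shared list) 17.0 kb outside. PPARD, a nuclear receptor, had 2 in its body (3.62 and 2.96 in the shared list), and RARRES1 had 1 (3.18). MEIS2, a homeobox gene, had 1 in its body (3.11). The shared peaks near these 10 further genes all had a lower fold than that of DHRS9.

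**Figure D4:**
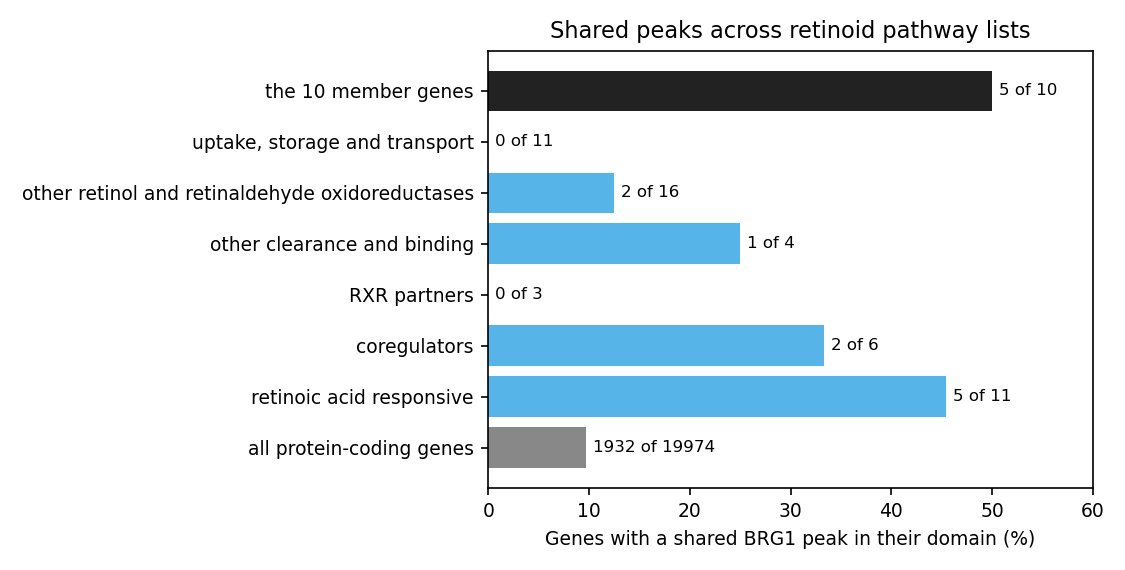
Percent of genes with a shared BRG1 peak in their domain (horizontal axis) for the 10 genes described here (black), for 6 lists of other retinoid pathway genes (light blue) and for all protein-coding genes (grey); the text beside each bar gives the counts. The bars reach 45.5% for retinoic acid responsive genes and are empty for uptake, storage and transport and for the RXR partners, which hold only 3 genes. The bars are not matched for domain length.

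As a check of the label, shared peaks lay in the domains of 3 of 6 epithelial markers, 4 of 6 stromal, 0 of 3 endothelial and 0 of 3 immune markers, beside 9.67% of all genes. At that share, 0 of 3 sets the endothelial and immune markers apart from no other genes. In replicate 1 by itself, 5 of 6 epithelial, 5 of 6 stromal, 3 of 3 endothelial and 1 of 3 immune markers had peaks, beside 20.2% of all genes. Replicate 2 had peaks at 4 of 6, 5 of 6, 0 of 3 and 0 of 3, beside 11.5%. Peaks of BRG1 do not show whether a marker is expressed, so the epithelial label of 12Z could not be tested from these lists.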

How the data were processed

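The deposited files are broad peak lists of each BRG1 replicate and an overlap list. Per the submitters' processing notes, peaks come from MACS2 on GRCh38.p12, with Bowtie2 and SAMtools, Picard, bedtools, cutadapt and Trim Galore also named, but without versions or settings. The authors deposited for each peak a fold enrichment (a ratio), a −log10 p and a −log10 q, used here only within their own list. The authors' deposited score was not used. How the overlap list was built is not stated. Read depth is unknown. No separate input file was used here.

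Peaks on chromosomes 1 to 22 and X (6293 shared, 17323 and 10082) were assigned by midpoint with Python 3.11.15, numpy 2.4.6 and pandas 2.3.3; scipy 1.17.1 gave Wilson intervals and matplotlib 3.10.9 the figures. A peak inside several gene bodies counted for each. Gene bodies, starts and promoter sequences are RefSeq's for GRCh38.p14, whose patches leave chromosome coordinates as in p12; all 10 genes matched both tables. Exons and introns were not analysed here, and neither were protein sequences. The assignment was tested on simulated peaks inside gene bodies only, so the nearest-gene rule for peaks outside a body was not covered. Nothing in the labels says that the replicates are separate cultures.

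The genes and lists were chosen with earlier results of these data known. Named were the 10 genes, every listed gene with a shared peak, a fixed set of others, neighbours, and 2 genes of like peak counts. Some genes that this rule selects are counted but not reported here.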

Additional observations from a re-analysis of the deposited data

How the results depend on the processing

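The 5 genes with a shared peak were the same 5 within 50 kb, with any base counted, among all gene types, and without replicate 1 or without replicate 2. Within 1 Mb RARB was added. At 50 kb ALDH1A2 stayed in only through its weak peak at the start side. Leaving out a replicate means using the list of the other. Each of the 6 shared peaks covered a peak of both replicates, so the return of the 5 genes there was built in. Only the addition of further genes was open, and none was added. The count moved to 3 with a −log10 q of 3 in both replicates, 0 with a value of 5, and 3 with 50% of both peaks overlapping. Peaks assigned to the 10 genes numbered 6, and 6 to 11 without replicate 1 or without replicate 2; further pathway genes with a peak numbered 10, and 12 to 16. The replicate 1 list is the longer one and called 20.2% of all genes. Restricted to a −log10 q of at least 3, the share found in the other replicate was 100% in replicate 1 (3 of 3, against 63.2% of 1418 peaks in or within 100 kb of a gene) and 100% in replicate 2 (4 of 4, against 93.6% of 699). By −log10 p instead of fold, the median percentile of the 6 shared peaks was 83.8, against 41.3 for the 3244 shared peaks in or within 100 kb of a gene. No paired analysis was possible because the lists give a single condition and the input library shares no replicate pairs with the BRG1 libraries.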

Other observations

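ALDH1A2 had 2 shared peaks, 3 in replicate 1 and 2 in replicate 2. The same counts were found for 66 genes outside the retinoid lists, of which ATP2B1, a calcium pump gene, and CFTR, a chloride channel gene, were nearest in domain length (252 and 236 kb, against 249 kb for ALDH1A2).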
